A study of Mus musculus with 4 samples.

Results

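The genes described are 7 families of enzymes that metabolise drugs, lipids, hormones and aldehydes: cytochrome P450 (Cyp), carboxylesterase (Ces), UDP-glucuronosyltransferase (Ugt), sulfotransferase (Sult), aldehyde dehydrogenase (Aldh), aldo-keto reductase (Akr) and flavin-containing monooxygenase (Fmo). They were taken by gene name, with the sterol demethylase Cyp51 left out, and the rule itself uses no measured value. The rule found 243 probes for 191 genes, of 39429 probes on the array and 30419 genes with a value on every array. Of the 190 members with such a value, 96 are Cyp, 20 Aldh, 19 Ces, 17 Sult, 17 Akr, 15 Ugt and 6 Fmo.

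P450 and flavin monooxygenase enzymes oxidise foreign compounds and endogenous lipids, carboxylesterases cleave esters, and the transferases attach a glucuronic acid or sulfate group that makes the product easier to excrete. Aldehyde dehydrogenases and aldo-keto reductases clear reactive aldehydes by oxidising or reducing them. Some members act in signalling: retinaldehyde dehydrogenases make retinoic acid and the Cyp26 enzymes break it down, and other P450 enzymes make steroid hormones, bile acids and active vitamin D. Many of these genes are best known from the liver, but connective tissue, fat, skin and leukocytes each express their own subset.

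RNA of 4 mouse samples was measured on an Agilent single-colour microarray, with 1 array per group. Mesenchymal stem cells came from embryos of the C3H background through a cell bank. The transfected tissue is the ligament-like tissue that formed from such cells after transfection with a mouse gene called only A in the labels, carried in the plasmid pCAGGS, whose promoter is active in most cell types. The ligaments came from wild type mice and from mice transgenic for A through the same plasmid, both of the C57BL/6J background. The number of animals, their age, the kind of ligament and any pooling are not given in the sources used here, and no cells with an empty plasmid are among the samples. Strain, culture and tissue of origin differ together whenever a cell array is set against a ligament array, and these cannot be told apart. The transgenic and wild type ligaments share their strain, and the tissue and the stem cells share theirs.

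Values are normalised signals: the log2 background-subtracted signal of a probe minus the 75th percentile of its array, so that 0 is the signal of a fairly bright probe. The scanner software marks each spot as well above background or not, and 49.0% to 56.3% of the spots of an array were so marked. The lowest such signal was -5.79 in stem cells, -5.71 in the tissue, -3.41 in wild type and -3.90 in transgenic ligament, so dim genes could be seen further down on the cell arrays. The SD of log2 signal over repeated spots of a probe was 0.185, 0.0654, 0.0989 and 0.107 on the arrays in that order. It covers spot noise only. With 1 array per group no difference has a replicate check, no test was possible and no p-value is given. Differences of 2-fold or more are called, and "at least" marks a fold against a signal that was not well above background, in which case the fold is a lower bound for the processing used here. With normexp background correction, an alternative that draws dim signals together, several bounds and folds were smaller, and its log2 differences are given beside those it moved most. A lower signal can come from fewer cells of a type or from less RNA per cell, and bulk RNA cannot tell these apart.

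Markers were set against the labels. Of 7 ligament and tendon markers, 6 were well above background in wild type and 7 in transgenic ligament, the missing one being the transcription factor Mkx. Stem cells also showed 7 and the tissue 6, so the presence of these markers did not set ligament apart from the cells. In wild type ligament 3 were higher than in stem cells and 2 were lower (Tnmd and Mkx). The tissue lacked Thbs4, and both cell arrays lacked the stromal surface enzyme Nt5e among 6 mesenchymal markers. The summed linear signal of 5 skeletal muscle markers was 4010 in wild type and 3050 in transgenic ligament against 1.85 in stem cells and 0.646 in the tissue. The hepatocyte genes Alb, Apoa1, Ttr, Fgb and Hnf4a were well above background on no array, while Tat was on all 4 and Serpina1a on both cell arrays.

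The sequences that carry the main findings are shown here. The first set is the array's own probes for the Ces1 carboxylesterases that were measured and for the P450 and aldo-keto reductase with the largest difference upwards in the tissue, together with the closely related pair Aldh1a1 and Aldh1a7, because these families hold near-identical copies and the probe decides which copy is read. Each line gives the first 30 bases of a 60-base probe, 5′ to 3′, from the array files. The positions are those of the whole probes in the mm9 build, in the same order: chr8:95544137-95544196, chr8:95693648-95694933 (a probe that spans an intron), chr8:95780225-95780284, chr8:95826722-95826781, all on the minus strand, then chr7:27918570-27918629 and chr6:34372905-34372964 on the plus strand, and chr19:20717764-20717823 (plus) and chr19:20767553-20767612 (minus). The exon or untranslated region each lies in was not assigned here.
Ces1a: gcagaagccactgaagagaaatgtttgtag
Ces1d: ctccatttttaaaagatggtgcctcagaag
Ces1f: gttcttccactaacagtgtatgtaaatcca
Ces1g: agagtctggagctaagaaaagggtgacttt
Cyp2f2: aatgacgtgacaaaggtgaaatacccgtct
Akr1b7: gagatccgtgcatgatagattccttcgtct
Aldh1a1: gactagttgtgacttaagctctgtccctca
Aldh1a7: ttccttgaactatgtaccatgcatgataac
Over their full length the probes of Ces1a, Ces1d, Ces1f and Ces1g shared no run longer than 8 bases with each other, and those of Aldh1a1 and Aldh1a7 shared 8. The Ces1d probe shared 17 bases with that of Ces1c and 15 with that of Ces1h. Probes were compared with probes and not with transcripts, so whether a probe also reads a related copy was not tested.

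The next set is 3 promoter stretches from RefSeq (GRCm38.p6). Aldh1a1 makes retinoic acid from retinaldehyde and Aldh1a7 is its neighbouring copy on chromosome 19. While the genes' differences between arrays were of unlike size, the stretches before their start sites are nearly the same. The promoters are therefore shown side by side. Capitals mark the longest run shared by both, 65 bases that end 29 bases before each start. Of the last 100 bases before the start, 94 were the same.
Aldh1a1: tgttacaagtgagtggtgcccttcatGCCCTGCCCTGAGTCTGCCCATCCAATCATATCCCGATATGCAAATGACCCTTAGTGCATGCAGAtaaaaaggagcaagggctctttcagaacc
Aldh1a7: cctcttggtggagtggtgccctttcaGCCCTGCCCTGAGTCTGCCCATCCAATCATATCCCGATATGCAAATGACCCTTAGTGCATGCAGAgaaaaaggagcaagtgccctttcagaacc
The stretches are chr19:20601848-20601967 on the plus strand and chr19:20727557-20727676 on the minus strand. The shared run holds the CCAAT box (CCAAT) and the octamer ATGCAAAT. On either strand they were present in 37.4% and 1.74% of 32851 promoter windows. Each window is longer than the stretches shown, so these are not the shares for a stretch as short as the shared run.

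Cyp1b1, a P450 that oxidises polycyclic aromatic compounds and oestrogens and is a known target of the aryl hydrocarbon receptor, had the largest bound of all members between stem cells and wild type ligament. Capitals mark the core of that receptor's response element, GCGTG or its reverse complement, which occurs 1 time in the stretch shown (chr17:79715062-79715211, minus strand).
Cyp1b1: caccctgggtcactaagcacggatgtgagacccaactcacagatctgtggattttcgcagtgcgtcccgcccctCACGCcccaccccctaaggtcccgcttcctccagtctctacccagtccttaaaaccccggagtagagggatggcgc
GCGTG was present on either strand in 32.4% of all promoter windows, which are longer than the stretch shown. It was present in 29 of the 144 member genes with a promoter entry. Among the 16 such genes higher in the tissue than in stem cells it was present in 4, which are Akr1c14, Aldh6a1, Cyp2b10 and Cyp4v3. The core of the antioxidant response element, TGACNNNGC, was present in 12.4% of all windows, in 11 of the 144 and in 0 of the 16. A match is a description of these letters and not a binding site.

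Of these 190 member genes, 96 were well above background on at least 1 array and 49 on all 4, while 94 were not well above background anywhere. Across the array, 19950 of 30419 genes were well above background at least once. By family, 44 of 96 Cyp genes reached that level on some array, 8 of 19 Ces, 5 of 15 Ugt, 5 of 17 Sult, 19 of 20 Aldh, 13 of 17 Akr and 2 of 6 Fmo. The number of member genes seen on an array was 74 in stem cells, 74 in the tissue, 57 in wild type and 74 in transgenic ligament. The remaining member, Fmo2, had no usable spot on the stem cell array. Its signal was -7.91 in the tissue, not well above background, and -0.80 and 0.30 in wild type and transgenic ligament.

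The genes not seen on any array included much of the classical liver and gland set: the dioxin-inducible Cyp1a1 and Cyp1a2, the bile acid enzymes Cyp7a1, Cyp7b1 and Cyp8b1, the steroid enzymes Cyp11a1, Cyp11b1 and Cyp19a1, the vitamin D catabolic enzyme Cyp24a1, the retinoic acid hydroxylases Cyp26a1 and Cyp26c1, and Aldh1b1. A signal that is not well above background is a limit of these arrays, and says nothing about lower levels. Some members were seen on the cell arrays or on the ligament arrays and not on both kinds. Both cell arrays and no ligament array showed 11 genes: Akr1c12, Ces1a, Ces1g, Cyp2c23, Cyp2c70, Cyp2j13, Cyp4a10, Cyp4a31, Cyp4f14, Cyp4f16 and Ugt1a10. Both ligaments and no cell array showed 6: Aldh1a2, Aldh1a3, Cyp27a1, Cyp2e1, Cyp4b1 and Sult2b1, although another Cyp2e1 probe was seen in stem cells at -3.96. Because the level that counts as seen lay higher on the ligament arrays, the first group need not be absent there. The transgenic ligament alone showed 10 genes, the wild type ligament alone 0, the stem cells alone 5 and the tissue alone 5. The level that counts as seen also lay higher in wild type (-3.41) than in transgenic ligament (-3.90). Over all spots, 49.0% and 53.5% were well above background there. Being seen in transgenic ligament alone thus need not mean a lower signal in wild type ligament. Of these 10 genes only Akr1c21, Cyp2b19 and Cyp2s1 were called higher in transgenic ligament, as given below. None of these counts was made over all genes.

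**Figure D1:**
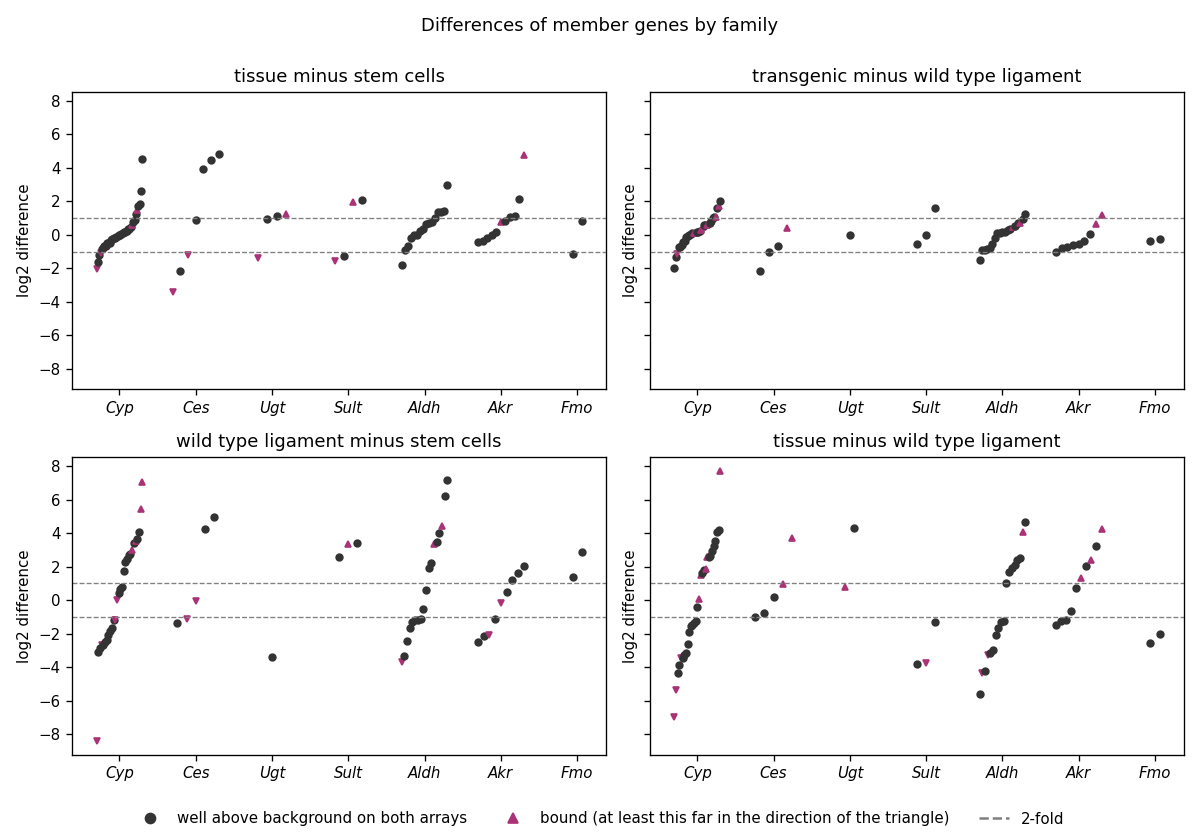
Log2 difference (vertical axis) of each member gene by family in the 4 comparisons. Circles are genes well above background on both arrays, triangles are bounds, and dashed lines mark 2-fold. Most members lie within 2-fold in the upper panels, whereas in the lower panels, which set cells against ligament, 57 of 66 and 60 of 69 lie beyond it.

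Setting the transfected tissue against the stem cells asks which genes differ once cells carry A and have formed tissue. A small set of esterases, P450 and aldo-keto reductases was much higher in the tissue, led by Ces1a (28.4-fold), Akr1b7 (at least 27.1-fold), Cyp2f2 (23.1-fold), Ces1f (22.0-fold) and Ces1d (15.3-fold). With normexp, 11 of the 33 called members had a fold smaller by more than 1.5 times. The log2 difference of Ces1a was then 3.57 instead of 4.83, that of Akr1b7 2.87 instead of 4.76, that of Ces1f 2.73 instead of 4.46 and that of Ces1d 3.07 instead of 3.94, while Cyp2f2 had 4.51 instead of 4.53. The Ces2 esterases that were seen went the other way. By its brightest probe Ces2c had a bound of -3.43 on the log2 scale (-2.54 with normexp). Of 80 members with a value, 21 (26.2%) were higher, against 11.0% of all 17900 genes compared, and 12 (15.0%) were lower, against 13.3%. The members' median log2 difference was 0.15 against -0.08 over all genes. The share lower was thus near that of all genes, and the share higher was above it. Of these calls 4 of the higher and 6 of the lower ones are bounds. With the percentile taken over probes seen on all arrays, 25 members were higher and 11 lower, and the shares over all genes became 13.7% and 10.9%.

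**Figure D2:**
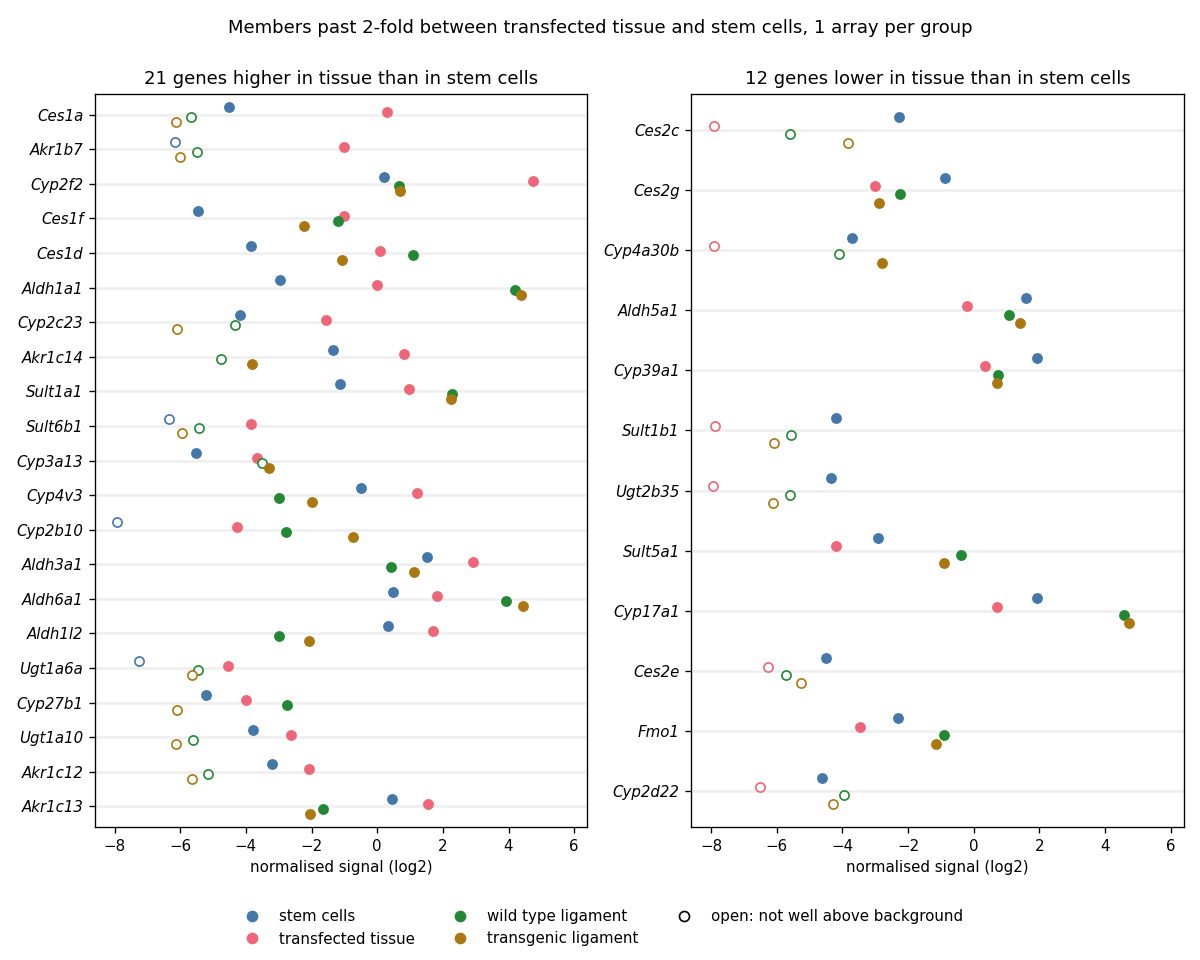
Normalised log2 signal (horizontal axis) on the 4 arrays of the 21 members called higher and the 12 called lower in the transfected tissue than in stem cells, ordered by size. Filled circles are well above background and open circles are not. Cyp2f2 reached 4.74 in the tissue and lay between 0.22 and 0.70 on the other arrays.

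The carboxylesterases of the Ces1 group lie side by side on chromosome 8, in the order a to h, and the sequences of the probes for those that were seen are given above. Ces1a had signals of -4.53 in stem cells, 0.30 in the tissue, -5.66 in wild type and -6.14 in transgenic ligament, neither ligament value being well above background. It was thus high in the tissue alone. Ces1d, a triacylglycerol hydrolase of liver and fat, had signals of -3.85 in stem cells, 0.09 in the tissue, 1.08 in wild type and -1.06 in transgenic ligament. Ces1f, another lipid esterase, had -5.46, -1.0, -1.20 and -2.23 in the same order. For both, the stem cells were the low array and the tissue lay near the ligaments. Ces1g differed by 0.90 on the log2 scale between tissue and stem cells (-2.43 and -3.33) and was not called. Ces1b, Ces1c, Ces1e and Ces1h were seen on no array, so 3 of the 8 neighbours were called.

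**Figure D3:**
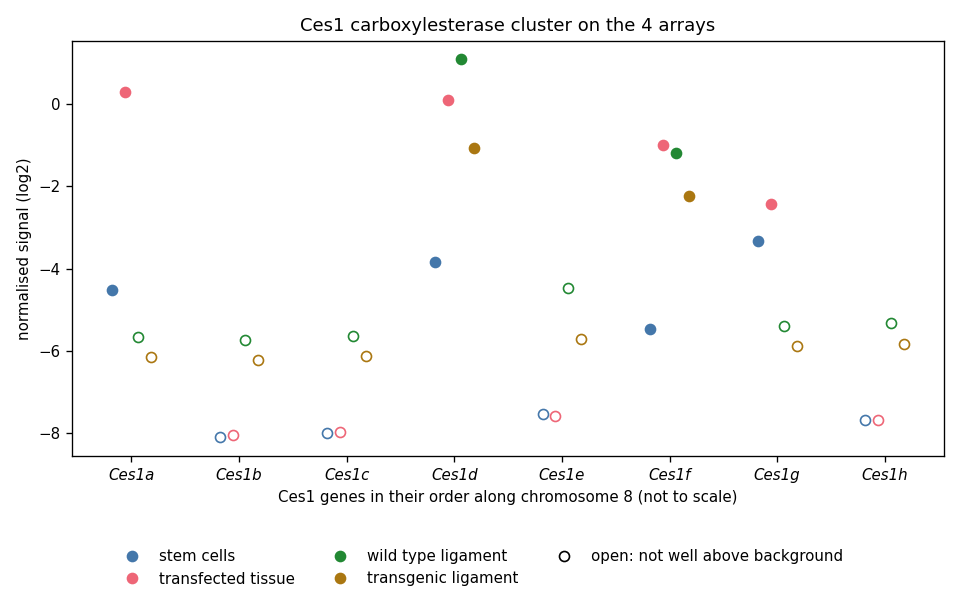
Normalised log2 signal (vertical axis) of the 8 Ces1 genes on the 4 arrays, in their order on chromosome 8. Filled circles are well above background and open circles are not. In the tissue Ces1a, Ces1d and Ces1f stand at 0.30, 0.09 and -1.0 against -4.53, -3.85 and -5.46 in stem cells, and signals may be compared within a gene but not between genes.

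Of the Ces2 group, whose members hydrolyse esters with large alcohol groups, only Ces2c, Ces2e and Ces2g were seen. Ces2c and Ces2e were seen in stem cells alone, and only by their brightest probe. Ces2c had signals of -2.29 in stem cells, -7.92 in the tissue, -5.61 in wild type and -3.84 in transgenic ligament, of which only the first was well above background. Ces2g was seen on all arrays at -0.86, -3.01, -2.24 and -2.89, a 4.45-fold lower level in the tissue than in stem cells. Ces2e was seen in stem cells alone at -4.51 and was at least 2.31-fold lower in the tissue. In stem cells the other probes of Ces2c (-8.11 and -7.41) and of Ces2e (-8.10) were not well above background. The call of Ces2c and Ces2e was lost where all probes of a gene were averaged.

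Among the xenobiotic P450 genes, Cyp2f2, the lung enzyme known for activating naphthalene, had signals of 0.22 in stem cells, 4.74 in the tissue, 0.66 in wild type and 0.70 in transgenic ligament. Only the tissue was high. Cyp2b10, the classical phenobarbital-inducible enzyme, stood at -7.94 in stem cells, not well above background, and had -4.28 in the tissue, -2.78 in wild type and -0.75 in transgenic ligament, at least 2.84-fold higher in the tissue. Cyp3a13 had -5.52 in stem cells and -3.66 in the tissue, a 3.62-fold difference near the lower end of the signals seen. Cyp2d22 was seen in stem cells alone and was at least 2.15-fold lower in the tissue. Of 21 xenobiotic P450 genes with a value on every array, 11 were seen on some array. Of 9 compared, 3 were called higher in the tissue and 1 lower, against 11.0% and 13.3% of all genes. With normexp Cyp2b10 and Cyp3a13 were under 2-fold, at 0.41 and 0.43 on the log2 scale.

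Of the arachidonic and fatty acid P450 genes, 2 of the 12 compared were higher in the tissue and 0 lower, against 11.0% and 13.3% of all genes. Cyp2c23, an arachidonic acid epoxygenase listed in the files as Cyp2c44, had -4.17 in stem cells and -1.55 in the tissue and was not well above background in either ligament, a 6.17-fold difference (log2 2.62, and 1.69 with normexp). Cyp4v3, a fatty acid hydroxylase whose human counterpart is mutated in a retinal dystrophy, had -0.49 in stem cells, 1.20 in the tissue, -2.99 in wild type and -1.99 in transgenic ligament. It was highest in the tissue and 3.24-fold above the stem cells. Cyp4a30b, annotated as a pseudogene in the files, was at least 4.05-fold lower in the tissue.

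The aldo-keto reductases had 4 of 11 compared members higher in the tissue and 0 lower, against the same 11.0% and 13.3%. Akr1b7, an aldose reductase-like enzyme known from the vas deferens and adrenal cortex, had -6.16 in stem cells, -1.02 in the tissue, -5.49 in wild type and -6.00 in transgenic ligament. Only the tissue value was well above background. Akr1c14, a hydroxysteroid dehydrogenase, had -1.35 in stem cells, 0.81 in the tissue, -4.76 in wild type ligament, not well above background, and -3.81 in transgenic ligament, 4.46-fold higher in the tissue than in stem cells. Its neighbours Akr1c12 and Akr1c13 were 2.18-fold and 2.12-fold higher, and Akr1c12 was under 2-fold with normexp (log2 0.65) and with quantile normalization.

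The aldehyde dehydrogenases had 4 of 16 compared members higher and 1 lower, against the same shares of all genes. Aldh1a1 had -2.96 in stem cells, -0.02 in the tissue, 4.19 in wild type and 4.38 in transgenic ligament, 7.71-fold higher in the tissue than in stem cells and still far below both ligaments. Its copy Aldh1a7, with the nearly equal promoter stretch shown above, had -2.36, -2.14, -0.45 and -1.35, a difference of 0.22 on the log2 scale between tissue and stem cells. Aldh3a1, a cornea-rich aldehyde dehydrogenase, was 2.66-fold higher in the tissue. Aldh6a1, an enzyme of valine breakdown in mitochondria, was 2.56-fold higher, and Aldh1l2, the mitochondrial formyltetrahydrofolate dehydrogenase, was 2.53-fold higher. Aldh5a1, which oxidises succinate semialdehyde from GABA, was 3.47-fold lower, with signals of 1.58 in stem cells, -0.21 in the tissue, 1.07 in wild type and 1.40 in transgenic ligament. There the tissue was the low array.

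The conjugating enzymes differed in both directions. Sult1a1, a phenol sulfotransferase, had -1.14 in stem cells, 0.96 in the tissue, 2.27 in wild type and 2.24 in transgenic ligament, 4.29-fold higher in the tissue and nearer to the ligament level there. Sult6b1 was seen in the tissue alone (-3.84), at least 3.85-fold higher. Sult1b1, seen in stem cells alone, was at least 2.90-fold lower and Sult5a1 was 2.40-fold lower. Ugt1a6a was at least 2.36-fold and Ugt1a10 2.20-fold higher, and Ugt2b35 at least 2.58-fold lower. The Ugt1a genes share their downstream exons, so a probe in these can read several of them, and their single-gene values are uncertain. Fmo1 was 2.24-fold lower in the tissue.

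Of the steroid, oxysterol and vitamin D genes, Cyp17a1, the hydroxylase and lyase of androgen synthesis, was 2.33-fold lower in the tissue. Cyp39a1, an oxysterol hydroxylase, had 1.93 in stem cells, 0.33 in the tissue, 0.75 in wild type and 0.70 in transgenic ligament, 3.02-fold lower in the tissue. Cyp27b1, which makes active vitamin D, had -5.21 in stem cells, -3.99 in the tissue, -2.76 in wild type and -6.09 in transgenic ligament, the last not well above background. It was 2.33-fold higher in the tissue (log2 1.22, and 0.22 with normexp).

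Of these 33 calls, 20 remained under every processing alternative that could be set against them. The 13 that did not are Akr1c12, Ces2c, Ces2e, Cyp27b1, Cyp2b10, Cyp2d22, Cyp3a13, Fmo1, Sult5a1, Sult6b1, Ugt1a10, Ugt1a6a and Ugt2b35. In none was the direction of a call reversed.

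Of 42 further genes of xenobiotic and retinoid metabolism that are not members, 36 had a value in this comparison. The list was chosen with earlier results of these data known, so its counts here and below are descriptions only. In the tissue 9 of the 36 were higher and 2 lower, against 11.0% and 13.3% of all genes. Those higher were the haem oxygenase Hmox1 (log2 difference 2.24), the glutathione synthesis genes Gclm (2.50) and Gclc (1.23), the P450 electron donors Por (1.20) and Cyb5a (1.19), the epoxide hydrolase Ephx2 (a bound of 3.94), the alcohol dehydrogenases Adh1 (1.63) and Adh5 (1.18), and the nuclear receptor Nr1i3 (a bound of 1.61), the regulator through which phenobarbital induces Cyp2b10. The aryl hydrocarbon receptor gene Ahr was 7.75-fold lower in the tissue, with 2.09 in stem cells and -0.87 in the tissue, while its target Cyp1b1 had 5.12 and 4.45. Ugdh, which makes the sugar donor for glucuronidation, was 2.03-fold lower. Of 6 adipocyte markers compared, 4 were higher in the tissue (Adipoq, Plin1, Cfd and Cidec) and 0 lower, with a summed linear signal of 8.15 against 6.30 in stem cells. Lep was seen on no array. Mesenchymal stromal markers were lower in 3 of 5 compared (Cd44, Thy1 and Eng) and higher in 0, with sums of 68.7 in the tissue and 125 in stem cells. Ligament and tendon markers were lower in 2 of 7 (Scx and Col1a1) and higher in 0, with sums of 42.4 and 88.4 that are mostly Col1a1. Macrophage markers were lower in 2 of 4 (Csf1r and Lyz2), with sums of 1.76 and 2.19, and so were 2 of 4 skeletal muscle and both hepatocyte markers compared (Tat and Serpina1a). The part of fat cells or of these other cells in the members' values was not tested.

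The comparison of transgenic with wild type ligament asks what A changes in the ligament of the animal, in samples that share no array with the comparison above. Cyp2b10 (4.09-fold), Cyp2b19 (at least 3.26-fold), Sult2b1 (3.06-fold) and Cyp26b1 (3.04-fold) were among the higher members, and Ces1d (4.42-fold) and Cyp2e1 (4.02-fold) among the lower ones. Of 70 members with a value, 9 (12.9%) were higher, against 6.29% of all 16425 genes compared, and 7 (10.0%) were lower, against 7.05%. These are few genes from a single pair of arrays. The median was 0.08 for members and -0.03 for all genes.

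**Figure D4:**
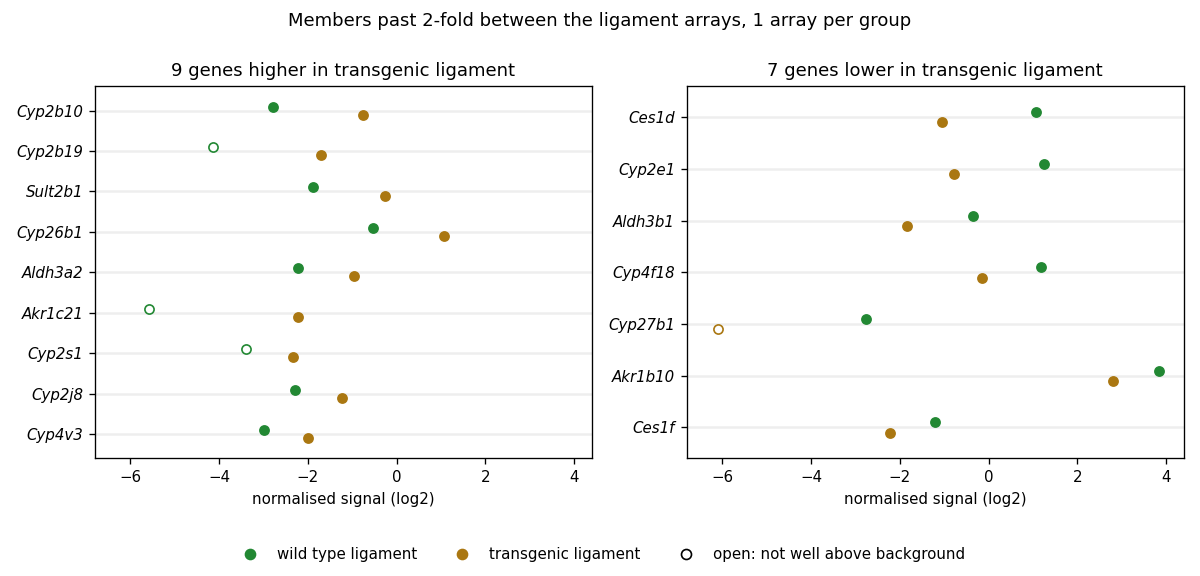
Normalised log2 signal (horizontal axis) on the ligament arrays of the 9 members called higher and the 7 called lower in transgenic ligament, ordered by size. Filled circles are well above background and open circles are not. Cyp2b10 stands at -2.78 and -0.75, and Ces1d at 1.08 and -1.06, in wild type and transgenic ligament.

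Among the called members well above background on both arrays, Cyp2b10 was furthest above wild type, with -2.78 and -0.75 in wild type and transgenic ligament. Its log2 difference was 2.03, and 1.08 with normexp. Cyp2b19, an arachidonic acid epoxygenase of keratinocytes, was seen in transgenic ligament alone (-1.71) and was at least 3.26-fold higher. Sult2b1, the cholesterol sulfotransferase of skin, had -1.89 in wild type and -0.27 in transgenic ligament. Cyp26b1, which hydroxylates retinoic acid and so ends its signal, had 1.52 in stem cells, 1.26 in the tissue, -0.54 in wild type and 1.06 in transgenic ligament, 3.04-fold higher in the transgenic sample. The wild type ligament was the low array and the others lay between 1.06 and 1.52.

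Aldh3a2, the fatty aldehyde dehydrogenase that is deficient in a disease of skin and nerve, was 2.37-fold higher, with -2.22 and -0.97. The hydroxysteroid dehydrogenase Akr1c21 and the epithelial P450 Cyp2s1 were seen in transgenic ligament alone and were at least 2.27-fold and 2.08-fold higher. Cyp2j8 and Cyp4v3 were 2.07-fold and 2.01-fold higher, close to the threshold. Of 6 keratinocyte markers, 5 were higher in transgenic ligament (Krt5, Krt14, Krt1, Krt10 and Lor) and 0 lower, with a summed linear signal of 162 against 35.3 in wild type ligament. Cyp2b19 and Sult2b1 move with these markers, and the part of skin RNA in their values was not tested.

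Among the called members well above background on both arrays, Ces1d was furthest below wild type, with 1.08 and -1.06. Its log2 difference was -2.14, and -1.68 with normexp. Cyp2e1, the ethanol-oxidising P450, had 1.24 and -0.77, and its other probe had -0.57 and -2.0. Aldh3b1, an aldehyde dehydrogenase for lipid aldehydes, was 2.79-fold lower, with -0.36 and -1.84. Cyp4f18, which inactivates leukotrienes in neutrophils, was 2.51-fold lower, with 1.18 and -0.15. Cyp27b1 was seen in wild type ligament and not in transgenic ligament, at least 2.20-fold lower. Akr1b10 and Ces1f were 2.05-fold and 2.03-fold lower, close to the threshold.

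Neutrophil markers were lower in the same sample, 5 of 5 (S100a8, S100a9, Ngp, Camp and Ltf), with a summed linear signal of 416 against 1160. All 3 erythroid markers compared were lower too, with 85.0 against 406, and 1 of 5 macrophage markers (Lyz2), with 10.6 against 17.4. Of the adipocyte markers 1 of 6 was lower (Cidec), with sums of 151 and 149. Ligament and tendon markers were higher in 5 of 7 (Tnmd, Comp, Fmod, Thbs4 and Scx) and lower in 0. Their summed signal was 146 in transgenic and 161 in wild type ligament. Most of this sum is the signal of Col1a1, whose log2 difference of -0.52 was not called. The part of leukocytes, fat cells or ligament cells in the members' values was not tested. Of the further genes of xenobiotic and retinoid metabolism, 35 had a value, of which 4 were higher and 2 lower, against 6.29% and 7.05% of all genes. The higher ones were Ahr (log2 difference 1.01), Ugdh (1.01), the retinoic acid binding protein Crabp2 (1.54) and the retinoic acid receptor Rarb (1.30). The lower ones were Gclm (-1.59) and the retinol-oxidising Adh7 (-1.76).

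Of the 16 calls, 6 remained under every alternative that could be set against them: Cyp2b10, Cyp26b1, Ces1d, Cyp2e1, Aldh3b1 and Cyp4f18. With normexp 9 of the 16 were under 2-fold, among them Sult2b1, Aldh3a2, Cyp2b19 and Ces1f.

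Across both comparisons that involve A, 56 members had a value in each. Cyp4v3 and Cyp2b10 were higher in both. Ces1d, Ces1f and Cyp27b1 were higher in the tissue and lower in transgenic ligament, and 0 were lower in the tissue and called in either direction in transgenic ligament. Over all 14537 genes with a value in both, 115 were higher in both, 114 higher in the tissue and lower in transgenic ligament, 143 lower and then higher, and 173 lower in both.

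The comparison of wild type ligament with stem cells, and of the tissue with wild type ligament, sets the native ligament beside the cells and the tissue. These comparisons share arrays with each other and with the first, so their values are set side by side and their likeness is not a result. The members differed widely: of 66 with a value, 30 (45.5%) were higher in ligament than in stem cells, against 37.7% of 16603 genes, and 27 (40.9%) were lower, against 24.5%. Of 69 with a value, 28 (40.6%) were higher in the tissue than in ligament, against 23.0% of 16542 genes, and 32 (46.4%) were lower, against 39.7%. Quantile normalization changed the shares over all genes to 30.3% higher and 30.6% lower in ligament than in stem cells, and to 30.0% and 29.4% in the tissue against ligament, while the members numbered 29 and 28, and 31 and 25. With normexp the fold was smaller by more than 1.5 times for 29 of the 57 and 22 of the 60 called members.

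Of 5 retinoid genes compared, 4 were higher and 1 lower in wild type ligament than in stem cells, against 37.7% and 24.5% of all genes. Aldh1a1 was 142-fold higher in wild type ligament than in stem cells (log2 7.15, and 6.39 with normexp). Aldh1a2, the retinaldehyde dehydrogenase of the early embryo, was seen in wild type (-2.44) and transgenic (-2.66) ligament and on neither cell array. It was at least 10.2-fold higher in wild type ligament than in stem cells. Aldh1a3, the third enzyme of this kind, was likewise seen in the ligaments (-1.37 and -1.27) and on neither cell array, at least 21.4-fold higher (log2 4.42, and 2.90 with normexp). Aldh8a1, described as a further retinal dehydrogenase, had -2.89 in stem cells, -3.82 in the tissue, -0.68 in wild type and -0.53 in transgenic ligament, 4.64-fold higher in ligament than in stem cells. The catabolic Cyp26b1 went the other way and was 4.19-fold lower in wild type ligament than in stem cells. The tissue lay below ligament in all 4 dehydrogenases, by 18.5-fold for Aldh1a1 and at least 20.3-fold for Aldh1a3, and 3.49-fold above it for Cyp26b1. Rarb, a retinoic acid receptor gene and known target of that receptor, was at least 28.6-fold higher in wild type ligament than in stem cells, while Rarg (8.56-fold), Rara (3.03-fold), the binding protein Crabp2 (log2 -1.58) and the retinaldehyde reductase Dhrs3 (2.14-fold) were lower there.

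**Figure D5:**
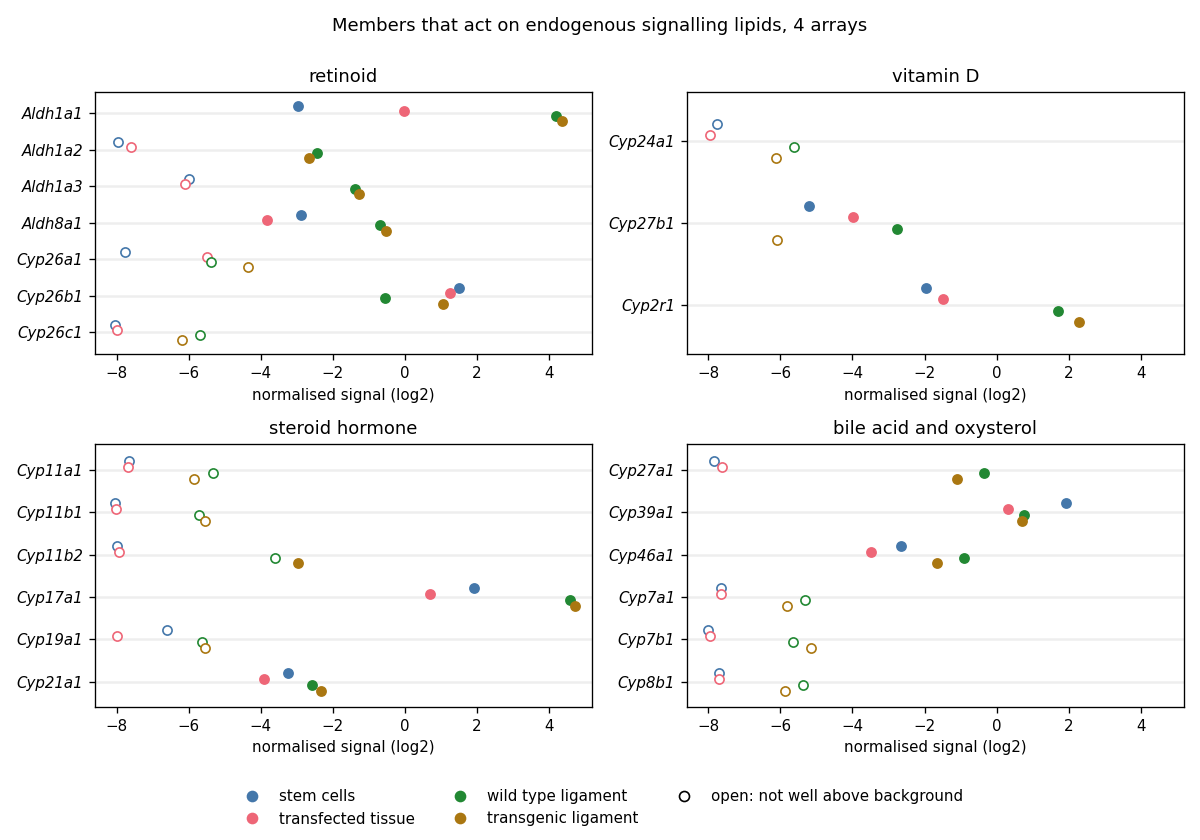
Normalised log2 signal (horizontal axis) on the 4 arrays of members that act on retinoids, vitamin D, steroid hormones, and bile acids or oxysterols. Filled circles are well above background and open circles are not. Aldh1a1, Aldh1a2, Aldh1a3 and Aldh8a1 are higher on both ligament arrays than on both cell arrays.

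Among the vitamin D and sterol genes, Cyp2r1, the main hydroxylase of vitamin D in the liver, had -1.96 in stem cells, -1.48 in the tissue, 1.70 in wild type and 2.29 in transgenic ligament, 12.7-fold higher in wild type ligament than in stem cells. Cyp27a1, the sterol hydroxylase of the acidic bile acid pathway, was seen in the ligaments (-0.36 and -1.11) and on neither cell array, at least 42.9-fold higher than in stem cells (log2 5.42, and 3.55 with normexp). Cyp46a1, the cholesterol hydroxylase known from neurons, had -2.66, -3.49, -0.90 and -1.64, 3.40-fold higher in ligament. Cyp17a1 had 1.92 in stem cells, 0.70 in the tissue, 4.59 in wild type and 4.73 in transgenic ligament, 6.36-fold higher in ligament than in stem cells and 14.8-fold lower in the tissue than in ligament. The steroidogenic transcription factor Nr5a1 was seen on all arrays, at -3.34 in stem cells, -3.46 in the tissue, -2.47 in wild type and -2.30 in transgenic ligament. The steroidogenic marker Hsd3b1 was seen on no array, and the cholesterol transport gene Star was seen in wild type ligament alone at -2.66. Cyp21a1, the steroid hydroxylase of the adrenal, lay between -3.91 and -2.33 on all arrays, and Cyp11b2, which makes aldosterone, was seen in transgenic ligament alone (-2.97).

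Cyp1b1 had 5.12 in stem cells, 4.45 in the tissue, -3.28 in wild type ligament, not well above background, and -3.00 in transgenic ligament. It was at least 337-fold lower in wild type ligament than in stem cells and at least 212-fold higher in the tissue than in ligament. On the log2 scale these are -8.40 and 7.73, and -6.84 and 6.22 with normexp. Cyp2e1 was at least 131-fold higher in ligament than in stem cells by its brighter probe, for which neither cell array was well above background (log2 7.03, and 4.72 with normexp). Its other probe had -3.96 in stem cells and -0.57 in wild type ligament, a smaller difference. The cytosolic formyltetrahydrofolate dehydrogenase Aldh1l1 had -4.87 in stem cells, -4.24 in the tissue, 1.36 in wild type and 0.49 in transgenic ligament, 74.7-fold higher in ligament than in stem cells (log2 6.22, and 4.69 with normexp). Its mitochondrial counterpart Aldh1l2 had 0.34, 1.69, -2.99 and -2.07, 10.1-fold lower in ligament than in stem cells. The cytosolic enzyme was the higher one in ligament samples and the mitochondrial one in cells, each against its own signal.

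Further genes higher in wild type ligament than in stem cells were Ces1d (30.5-fold), Ces1f (19.1-fold), Cyp4f18 (16.9-fold), the proline catabolic Aldh4a1 (15.7-fold), the fatty acid hydroxylase Cyp4b1 (at least 11.6-fold) and Aldh6a1 (10.9-fold). Genes lower in ligament were the proline synthesis enzyme Aldh18a1 (at least 12.7-fold), Ugt1a6b (10.4-fold), the epoxygenase Cyp2j6 (8.42-fold), Cyp2j8 (7.26-fold), Cyp4f16 (at least 6.47-fold), Cyp20a1 (6.32-fold), Cyp4v3 (5.65-fold), Akr1b8 (5.62-fold), the carnitine pathway enzyme Aldh9a1 (5.48-fold) and Cyp4f13 (5.09-fold). Aldh4a1 and Aldh18a1, which act on opposite arms of proline metabolism, thus went in opposite directions. Markers of other cell types were seen in wild type ligament, with 5 of 5 for skeletal muscle, 6 of 6 for keratinocytes, 5 of 5 for neutrophils, 3 of 3 for erythroid cells and 6 of 7 for adipocytes. The part of these cells in the ligament values was not tested.

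Among the arachidonic and fatty acid P450 genes, Cyp2j6, Cyp2j9, Cyp2j13, Cyp4f13, Cyp4f16, Cyp4f17 and Cyp4v3 were lower in wild type ligament than in stem cells, and Cyp4b1 and Cyp4f18 higher. This is 7 lower and 2 higher of 11 compared, and of 12, 8 were higher and 3 lower in the tissue than in ligament. Over all genes the shares were 24.5% lower and 37.7% higher in the first, and 23.0% higher and 39.7% lower in the second. Cyp2u1 hydroxylates long-chain fatty acids. Its brightest probe had 5.17 in stem cells, 4.36 in the tissue, 5.93 in wild type and 5.55 in transgenic ligament. This probe was high on every array and 2.97-fold lower in the tissue than in wild type ligament. Another of its probes had only -3.74, -3.80, -2.21 and -2.50 in the same order. The remaining probe was well above background on no array. Cyp2j6 had 0.09, 0.23, -2.99 and -2.19, and Cyp2j9 had -0.22, 0.54, -2.08 and -1.40. Cyp2j13, Cyp4f14 and Cyp4f16 were seen on the cell arrays alone. Cyp4f17 had -1.36, -1.39, -3.03 and -3.45, and Cyp4f13 had -0.73, -0.49, -3.07 and -3.23, so that for these 2 the cells were high and the ligaments low. Cyp4a10 was seen at -4.78 and -5.25 on the cell arrays, and had -3.59 and -4.51, not well above background, in the ligaments. Cyp4f39, known from skin, had -3.69 in transgenic ligament, where it was seen. In wild type ligament it had -3.45, which was not well above background there, so it was not higher in transgenic ligament.

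In the tissue against wild type ligament the largest differences upwards after Cyp1b1 were Aldh1l2 (25.5-fold), Ugt1a6b (20.2-fold), Akr1c14 (at least 18.6-fold), Cyp4v3 (18.3-fold), Cyp2f2 (16.9-fold), Aldh18a1 (at least 16.5-fold), Ces1a (at least 13.0-fold), Cyp20a1 (11.6-fold), Cyp2j6 (9.30-fold), Akr1c13 (9.19-fold) and Cyp2j8 (7.71-fold). Those downwards were Cyp2e1 (at least 124-fold), Aldh1l1 (48.4-fold), Cyp27a1 (at least 40.8-fold), Cyp4f18 (20.6-fold), Aldh1a3, Aldh1a1, Cyp17a1, Sult5a1 (14.0-fold), Sult2b1 (at least 13.7-fold), Cyp4b1 (at least 11.0-fold), the xenobiotic P450 Cyp2c38 (10.8-fold) and Aldh1a2 (at least 9.67-fold). For Ces1d and Ces1f the tissue and wild type ligament lay within 2-fold, at 1.99-fold lower and 1.15-fold higher. The calls of Cyp2j8, Cyp2j13 and Cyp4f17 in both comparisons, and of Cyp2u1 and Cyp21a1 in the tissue against ligament, were lost under at least 1 processing alternative. Of the further genes of xenobiotic and retinoid metabolism, 9 were higher and 17 lower in wild type ligament than in stem cells and 21 higher and 7 lower in the tissue than in ligament, of 36 with a value in each. Over all genes the shares were 37.7% higher and 24.5% lower, and 23.0% higher and 39.7% lower, in the same order.

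Where several probes of a member were well above background on both arrays, they never passed 2-fold in opposite directions. Dimmer probes lay outside this check. For example, the other probes of Cyp2r1, Cyp2c37, Cyp2c38, Cyp2j8 and Cyp21a1 were well above background on no array. Of 43 members with several probes, the check covered 11 in the tissue against stem cells and 9 in transgenic against wild type ligament. It covered 9 in ligament against stem cells and 8 in the tissue against ligament. Opposite directions were rare over all genes too, in 18 of 3774, 1 of 2938, 81 of 2714 and 102 of 2717 in the same order. So few members could hardly have shown a case, and its absence says little about their probes. Probes of Cyp2j6 and Fmo5 in the first, of Cyp4f18, Fmo1 and Fmo5 in the third and of Aldh3a1 in the fourth differed by 1 or more on the log2 scale.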

How the data were processed

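The authors deposited, per the file headers, scanner files with the spot intensity of each array as background-subtracted, detrended processed signal on a linear scale (Agilent Feature Extraction 10.7.1.1, mm9 probe positions), with no normalization between arrays. The submitters' processing notes name version 9.5.1.1, and the difference could not be settled. They also deposited a value table of linear intensity whose normalization is not stated. Its columns hold nearly the same sorted values, and it served as an alternative.

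Spots marked as controls or outliers (the latter 155 to 281 per array) were not used. From the log2 of the processed signal, the 75th percentile of the array's non-control spots was subtracted. Spots of a probe were averaged, and a gene was read by whichever of its probes had the highest mean. Of the 243 member probes, 231 were named by accession through RefSeq, which renamed 4 gene names, and the others kept the files' name. Genes entered a comparison if at least 1 of its arrays was well above background. If the dimmer array was not, the fold is a bound, taken against that probe's signal or the array's lowest well-above-background signal, whichever was higher. There was 1 array per group, so no test was made, and precision is limited by the number of arrays.

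The members, marker and pathway lists were chosen with earlier results of these data known. Named genes are all members called from 2-fold in the tissue against stem cells or in transgenic against wild type ligament, the 12 largest differences per direction in the other comparisons, the signalling-lipid members seen on an array, and every called gene of the pathway list in those first comparisons. Aldh1a7, Cyp2c70 and other members beyond the rule were named after their values were seen.

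For each comparison 7 alternatives were run: normexp (limma 3.58.1, R 4.3.3, offset 50), quantile normalization, the percentile over probes seen on all arrays, the deposited table, only genes seen on both arrays, no filter or bound, and the mean of all probes. The calling was tested on simulated data. Other steps used Python 3.11.15, numpy 2.4.6 and pandas 2.3.3, and figures matplotlib 3.10.9. Promoter stretches are from RefSeq (GRCm38.p6), with an entry for 144 member genes, and no genome was used.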

Additional observations from a re-analysis of the deposited data

Results flagged for a closer look

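For 3 members the difference went one way in the cells and the opposite way in the animals. Ces1d, the triacylglycerol hydrolase, differed by 3.94 on the log2 scale between the transfected tissue and stem cells and by -2.14 between transgenic and wild type ligament. Its neighbour Ces1f differed by 4.46 and -1.02, and the second value lies at the 2-fold threshold. Cyp27b1, the enzyme that makes active vitamin D, differed by 1.22 and by -1.14, the latter being a bound because transgenic ligament was not well above background. With normexp the ligament calls of Ces1f and Cyp27b1, and the cell call of Cyp27b1, fell under 2-fold. Each value rests on 1 array against 1 array, and the difference between the comparisons was not tested.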

How the results depend on the processing

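Counts over all members moved by more than 1.5 times as follows. Members lower in the tissue than in stem cells numbered 12, but 6 where only genes seen on both arrays entered and 24 with no filter or bound. Members higher in transgenic ligament numbered 9, but 2 with normexp and 20 with no filter. Those lower numbered 7, but 13 with no filter. Without the filter, members higher in wild type ligament than in stem cells went from 30 to 135, and members lower in the tissue than in ligament from 32 to 139. Without a filter, genes at the background of both arrays are counted, and the background of the ligament arrays lies higher after scaling. Of 56 counts by family, comparison and direction, 11 moved by more than 1.5 times with normexp, 10 where only genes seen on both arrays entered, 29 with no filter, 6 each with quantile normalization, the deposited table and the mean of all probes, and 4 with the percentile over probes seen on all arrays. In the tissue against stem cells, normexp gave 3 instead of 6 Cyp and 0 instead of 2 Ugt members higher, and in transgenic against wild type ligament 2 instead of 6 Cyp members higher. With normexp the fold of 11 of 33, 5 of 16, 29 of 57 and 22 of 60 called members was smaller by more than 1.5 times, a measure added after the data were seen. No call turned its direction under any alternative. Of the calls, 20 of 33, 6 of 16, 48 of 57 and 47 of 60 remained in the comparisons in the order of the report, over all alternatives except the one that leaves out bounds. Over all genes, normexp gave 1069 higher instead of 1961 in the tissue against stem cells, and 402 higher and 571 lower instead of 1033 and 1158 in transgenic against wild type ligament. With no filter, genes higher in transgenic ligament numbered 2147 and those lower 2097. Genes higher in the tissue against stem cells numbered 2947, and those lower 3585, and genes higher in ligament than in stem cells 17473 instead of 6267 and lower in the tissue than in ligament 17947 instead of 6566. Only genes seen on both arrays gave 681 genes higher in transgenic ligament.

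The median over all genes shifted with the scaling: in the tissue against stem cells from -0.08 to 0.06 with the percentile over probes seen on all arrays, in wild type ligament against stem cells from 0.30 to -0.15 and in the tissue against ligament from -0.43 to 0.16 with quantile normalization. The members' medians were then 0.30, -0.03 and -0.16. The deposited table gave the same medians over all genes as quantile normalization in the last 2.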
